A study of Homo sapiens with 6 samples.

Results

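The transcripts of 36 aminoacyl-tRNA synthetases were followed in colorectal cancer cells depleted of RNF6, a RING-type ubiquitin ligase. The members were every count-table symbol that names a cytosolic or a mitochondrial synthetase on a list, 20 cytosolic and 16 mitochondrial enzymes out of 56638 listed symbols, in the older spelling without the final 1 (AARS is now AARS1). The rule reads symbols and no values. All 36 passed the filter on low counts, as did 14685 symbols in all. The cells are labelled HT29, an established line from a human colorectal adenocarcinoma. There were 3 RNF6 siRNA libraries, labelled as a knockdown of RNF6, and 3 libraries from cells given a nonspecific control siRNA, labelled wild type. All cells grew in serum-supplemented RPMI-1640, and total RNA went into TruSeq libraries. The time after transfection, the siRNA sequences and whether more than 1 siRNA was used are not stated in the labels.

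Aminoacyl-tRNA synthetases join each amino acid to its transfer RNA (tRNA), the step that fixes the meaning of a codon. Human cells keep separate nuclear genes for the cytosolic and the mitochondrial enzyme of most amino acids, while a few genes make both forms. The enzymes fall into structural classes I and II, which bind ATP through unrelated folds. In the cytosol several of them sit in a multisynthetase complex held together by the scaffold proteins AIMP1, AIMP2 and EEF1E1. Many cytosolic synthetase genes are known targets of ATF4, the transcription factor of the amino acid response. Fast-growing tumour cells, including those of the colon, depend on these enzymes for protein synthesis.

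Gene reads per library were 11051552, 6808771 and 11071456 for RNF6 siRNA replicates 1, 2 and 3, and 7173957, 9096826 and 9366532 for control replicates 1, 2 and 3. Levels are counts per 1000000 gene reads (CPM) scaled by TMM factors, and library values are listed in the order of replicates 1, 2 and 3. RNF6 had 16.4, 16.2 and 16.8 CPM in RNF6 siRNA libraries, against 54.2, 45.1 and 57.6 CPM in control libraries, so the groups did not overlap (log2 fold change −1.66, SE 0.126, adjusted p = 2.12e-06). The label HT29 was only partly borne out by markers of this line. EPCAM (206.0 to 242 CPM), CDH1 (104 to 115 CPM) and KRT8 (1181 to 3368 CPM) were abundant, but the enterocyte genes VIL1, LGALS4 and CEACAM5 did not exceed 0.686 CPM in any library and CDX1 had 0 reads, which allows up to 0.441 CPM in the shallowest library (3 counts, covering counting error only). Of the 12 epithelial markers 8 were tested. The 4 keratins KRT8, KRT18, KRT19 and KRT20 fell and 0 markers rose, beside 16.1% of all genes lower and 16.6% higher, while EPCAM, CDH1, CLDN7 and CDX2 did not pass and had log2 fold changes from 0.012 to 0.18. The markers summed to 2484 to 2873 CPM in RNF6 siRNA and 4377 to 5680 CPM in control libraries, most of it KRT8 and KRT19. The 6 fibroblast markers summed to 69.8 to 84.5 CPM in RNF6 siRNA and 49.9 to 65.2 CPM in control libraries, nearly all of it COL1A1 (higher, adjusted p = 0.0197), with COL1A2, COL3A1, DCN and LUM at 0.441 CPM or less in every library. Of 6 leukocyte markers 0 could be tested, and they summed to 1.32 to 2.75 CPM in RNF6 siRNA and 1.65 to 3.91 CPM in control libraries. The 5 endothelial markers summed to 1.43 to 2.21 CPM in RNF6 siRNA and 1.92 to 2.87 CPM in control libraries, with PECAM1 at 0 reads and VWF lower (adjusted p = 0.0283). The part of these markers in the results on synthetases was not tested. The labels do not describe the replicates as separate cultures, so each p-value reflects the spread among these libraries, which may be technical.

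Measured per kilobase of exon, the cytosolic enzymes made up the abundant end of the family and the mitochondrial enzymes the scarce end. GARS and KARS, single genes that make the enzyme of both compartments, are counted as cytosolic. The length of a gene joins the exons of all its protein-coding transcripts, and the levels and their order depend on this choice. The median over the 20 cytosolic transcripts was 46.9 CPM per kilobase in RNF6 siRNA and 54.2 in control libraries, and over the 16 mitochondrial ones 8.62 in RNF6 siRNA and 9.40 in control libraries. GARS, the glycyl-tRNA synthetase gene, had the highest mean in both groups, at 98.9 ± 2.76 CPM per kilobase in RNF6 siRNA and 101 ± 1.30 in control libraries (SD, n = 3 each). RARS, QARS and SARS, for arginine, glutamine and serine, followed in the controls at 93.7, 92.0 and 88.6 CPM per kilobase, with library values that overlapped among them. The first place of GARS lay within the spread: QARS overlapped it in both groups, and in RNF6 siRNA replicate 1 SARS (99.3) and QARS (99.0) stood above GARS (98.1). In the control order, 25 of the 35 steps between neighbours lay within the spread of the libraries. Among the 20 highest control levels only 2 belonged to mitochondrial enzymes, IARS2 (66.2) and RARS2 (27.1), which charge isoleucine and arginine tRNAs. SARS2, the mitochondrial seryl-tRNA synthetase gene, was last, at 0.743 ± 0.169 CPM per kilobase in RNF6 siRNA and 0.595 ± 0.202 in control libraries. Exons of other genes cover 83.1% of its exons in GENCODE release 29, and reads falling there may have been set aside as ambiguous, so its level is uncertain. The same share was 19.5% for HARS2, 15.5% for HARS, 12.2% for YARS and 11.6% for DARS, below 10% for the other members, and 0 for 21 of them.

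**Figure D1:**
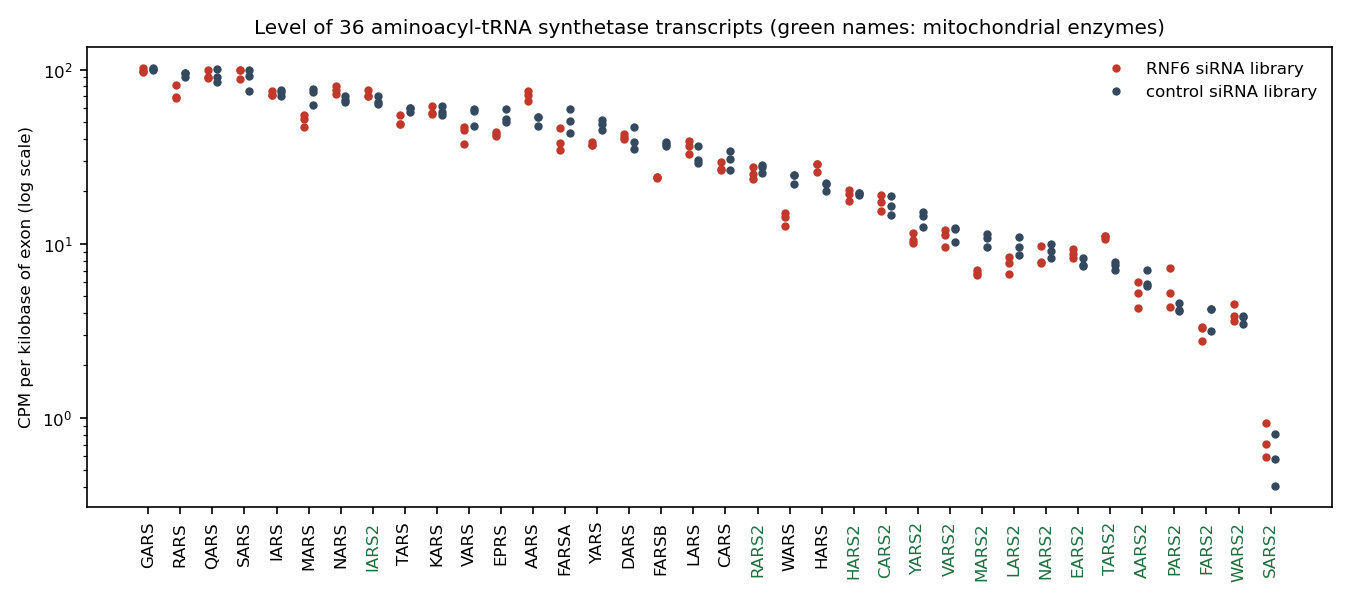
TMM-scaled CPM per kilobase of exon (log axis) for each of the 36 synthetase transcripts, ordered by the control mean, with RNF6 siRNA libraries at the left and control siRNA libraries at the right of each gene. The mean of GARS is highest, near 100.6 CPM per kilobase in control libraries and that of SARS2 lowest at 0.595, and 14 of the 16 lowest names are mitochondrial enzymes.

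As a family, the synthetases were called at about the rate of any gene. At an adjusted p below 0.05, 12 of 36 members (33.3%) differed between the groups, where 32.7% of all tested genes did. The calls leaned downward: 9 members fell (25%, against 16.1% of all genes lower) and 3 rose (8.33%, against 16.6% of all genes higher). For 17 members, the RNF6 siRNA and control libraries were fully apart (47.2%), against 44.2% of all genes. Changes were moderate, with a median absolute log2 fold change of 0.24 over the members and 0.28 over all tested genes. Of the called members 3, all lower, changed 1.5-fold or more, where 7.91% of all genes were called lower and 9.27% called higher by that much, and 0 members reached a fold of 2, which 5.74% of all genes did. Synthetase reads took 0.426%, 0.422% and 0.428% of gene reads in RNF6 siRNA libraries, against 0.451%, 0.456% and 0.454% in control libraries, without overlap. In bulk RNA, fewer cells of a type and less RNA per cell cannot be told apart.

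Split by compartment, more of the cytosolic than of the mitochondrial enzymes were called. The cytosolic counts and sums include GARS and KARS, which make the enzyme of both compartments. A call is harder to reach at the lower counts that most mitochondrial members had. The SE ran from 0.0866 (GARS) to 0.136 (FARSA) in cytosolic members and from 0.0911 (IARS2) to 0.340 (SARS2) in mitochondrial ones. Their median absolute log2 fold changes were 0.28 (cytosolic) and 0.22 (mitochondrial). Whether read depth accounts for the difference in calls was not tested. Of 20 cytosolic members 7 fell (35%), 2 rose (10%) and 11 did not pass, with a median log2 fold change of −0.084. Of 16 mitochondrial members 2 fell (12.5%), 1 rose (6.25%) and 13 did not pass, with a median of −0.050. Over all tested genes 16.1% fell and 16.6% rose, with a median of 0.0064. The summed cytosolic level was 3625, 3554 and 3558 CPM in RNF6 siRNA libraries, against 3753, 3952 and 3833 CPM in control libraries. The summed mitochondrial level was 695, 674 and 682 CPM in RNF6 siRNA libraries, against 687, 680.3 and 687 CPM in control libraries, and those ranges overlapped. The ratio of the sums was 5.23 ± 0.0311 in RNF6 siRNA and 5.62 ± 0.176 in control libraries (SD, n = 3 each), with no overlap between the groups. These counts and sums are descriptions with no test of the difference between the compartments, and abundant members dominate the sums. The counts depended on single libraries: 3 cytosolic members fell without RNF6 siRNA replicate 3 and 4 without control replicate 3, where 1 rose in either case. Of the mitochondrial members, 1 fell when library 2 or 3 of either group was dropped, 3 fell when library 1 of either group was, and 2 rose without RNF6 siRNA replicate 1. Without RNF6 siRNA replicate 2 the mitochondrial median was 0.018.

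**Figure D2:**
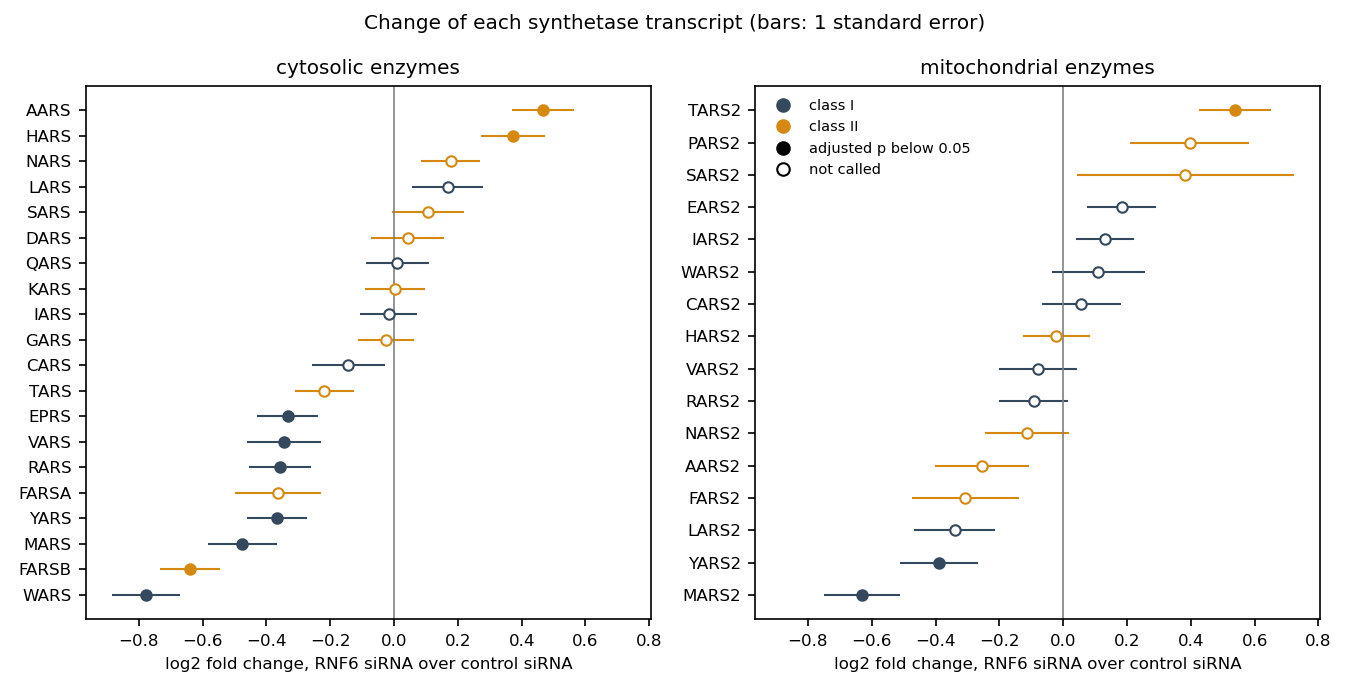
Log2 fold change (RNF6 siRNA over control siRNA, x axis) of each synthetase transcript with 1 standard error, cytosolic enzymes at the left and mitochondrial enzymes at the right, filled where the adjusted p was below 0.05. WARS at −0.78 and AARS at 0.47 mark the ends of the cytosolic panel, MARS2 at −0.63 and TARS2 at 0.54 those of the mitochondrial one, and every filled point right of 0 is a class II enzyme.

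Every called class I enzyme fell, while the called class II enzymes went both ways. Of 19 class I enzymes, counting EPRS there for its glutamyl domain, 8 fell (42.1%, against 16.1% of all genes) and 0 rose, with a median log2 fold change of −0.14. Of 17 class II enzymes 3 rose (17.6%, near the 16.6% of all genes) and 1 fell (5.88%), with a median of 0.0033. Among the cytosolic enzymes alone, 6 of 10 class I members fell and 0 rose, while of 10 class II members 1 fell and 2 rose. The class I transcripts summed to 2378, 2314 and 2353 CPM in RNF6 siRNA libraries, against 2595, 2687 and 2655 CPM in control libraries, without overlap. The class II sums of 1943, 1914 and 1887 CPM in RNF6 siRNA libraries overlapped those of 1844, 1946 and 1865 CPM in control libraries. No test of the difference between the classes was made. Without RNF6 siRNA replicate 3, the class I calls of EPRS, RARS, VARS, YARS and YARS2 all ended.

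WARS, the cytosolic tryptophanyl-tRNA synthetase gene on chromosome 14, known as a gene that interferon induces, had the largest change of the 36 members. It had 70.4, 62.3 and 74.3 CPM in RNF6 siRNA libraries, against 109, 123 and 123 CPM in control libraries. Every RNF6 siRNA library was below every control library, and the ratio was 1.71-fold, lower after RNF6 siRNA (log2 fold change −0.78, SE 0.107, adjusted p = 1.67e-04). Its mitochondrial counterpart WARS2 had 10.2, 10.9 and 12.7 CPM in RNF6 siRNA libraries, against 10.7, 9.82 and 10.8 CPM in control libraries, with overlapping groups (adjusted p = 0.601). The WARS call held in all 12 alternatives, with an adjusted p of 3.11e-09 to 0.00579. RefSeq gives WARS more than 1 start site. The promoter of the downstream one held an interferon-stimulated response element core (ISRE), which starts 55 bases before the start site, and a STAT-type element (GAS, TTCNNNGAA) 142 bases before it. Both are shown in capitals in the window of 250 bases before to 50 after the start (GRCh38.p14, chr14:100375298-100375597, minus strand), because this is the member with the largest change:

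WARS: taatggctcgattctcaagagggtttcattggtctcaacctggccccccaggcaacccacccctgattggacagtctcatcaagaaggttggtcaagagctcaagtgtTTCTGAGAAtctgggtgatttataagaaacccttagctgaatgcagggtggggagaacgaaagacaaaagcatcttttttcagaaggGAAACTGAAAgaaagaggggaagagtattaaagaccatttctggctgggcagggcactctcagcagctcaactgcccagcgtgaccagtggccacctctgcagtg

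Searched on both strands, the ISRE core occurred in the windows of 2 of 30 members (WARS and EARS2) and of 4.38% of all 27305 genes with a window, and the GAS core in 5 of 30 members and 9.38% of all genes. A match is a string of letters and not a binding site.

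FARSB and FARSA encode the beta and alpha subunits of the cytosolic phenylalanyl-tRNA synthetase, the only heteromer in the family. FARSB had 80.6, 81.1 and 80.8 CPM in RNF6 siRNA libraries, against 125.5, 129.8 and 123 CPM in control libraries, a 1.56-fold lower level with no overlap (log2 fold change −0.64, SE 0.0936, adjusted p = 2.60e-04). This call also held in all 12 alternatives. FARSA had 100.3, 75.1 and 82.7 CPM in RNF6 siRNA libraries, against 94.1, 129 and 109.7 CPM in control libraries. Its groups overlapped and it missed the threshold (log2 fold change −0.36, SE 0.136, adjusted p = 0.0563), but it passed once control library 1 (adjusted p = 0.00226) or RNF6 siRNA library 1 (0.0139) was dropped, with DESeq2 (0.0432) and without the filter on low counts (0.0141). The CPM ratio of FARSA to FARSB was 1.06 ± 0.163 in RNF6 siRNA and 0.879 ± 0.122 in control libraries (SD, n = 3 each), and these ranges overlapped. FARS2, the single-chain mitochondrial enzyme for phenylalanine, had 7.32 ± 0.732 CPM in RNF6 siRNA and 9.08 ± 1.45 CPM in control libraries (adjusted p = 0.182).

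For methionine and tyrosine the enzymes of both compartments fell. MARS, the cytosolic methionyl-tRNA synthetase gene, had 166, 141 and 157 CPM in RNF6 siRNA libraries, against 189, 233 and 224 CPM in control libraries. MARS2, the mitochondrial one, had 21.4, 20.6 and 19.9 CPM in RNF6 siRNA libraries, against 34.4, 28.9 and 32.4 CPM in control libraries. Neither pair of groups overlapped, and the levels were 1.39-fold lower for MARS (log2 fold change −0.47, SE 0.107, adjusted p = 0.00476) and 1.55-fold lower for MARS2 (log2 fold change −0.63, SE 0.119, adjusted p = 0.00154). Both calls held in all 12 alternatives. YARS, the cytosolic tyrosyl-tRNA synthetase gene, had 124, 119.8 and 119.5 CPM in RNF6 siRNA libraries, against 146, 165 and 157 CPM in control libraries (log2 fold change −0.37, SE 0.0941, adjusted p = 0.01). YARS2, the mitochondrial one, had 24.3, 22.4 and 21.5 CPM in RNF6 siRNA libraries, against 26.3, 32.2 and 30.5 CPM in control libraries (log2 fold change −0.39, SE 0.123, adjusted p = 0.0277). The groups were apart for both genes, but the calls were not firm. YARS lost its call when control library 3 (adjusted p = 0.0506) or RNF6 siRNA library 3 (0.051) was dropped, and its adjusted p spanned 0.00171 to 0.074 in the alternatives. YARS2 lost its call when control library 2 (adjusted p = 0.0849) or 3 (0.101) was dropped, or RNF6 siRNA library 2 (0.0727) or 3 (0.119), with a span of 0.00439 to 0.119.

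Of the 8 synthetases of the multisynthetase complex, 3 fell (MARS, RARS and EPRS) and 0 rose, so 37.5% were called, against 32.7% of all genes in either direction and 16.1% lower. Their median log2 fold change was −0.0068. RARS, for arginine, had 158, 184 and 156 CPM in RNF6 siRNA libraries, against 216, 216 and 204 CPM in control libraries, without overlap (log2 fold change −0.36, SE 0.0978, adjusted p = 0.0138). EPRS, whose product charges both glutamate and proline tRNAs, averaged 214 ± 5.82 CPM in RNF6 siRNA and 270.2 ± 24.1 CPM in control libraries (SD, n = 3 each; log2 fold change −0.33, SE 0.0956, adjusted p = 0.0176). RARS did not pass once RNF6 siRNA library 3 was dropped (adjusted p = 0.0785, span 0.00836 to 0.0785). EPRS did not pass once control library 3 (adjusted p = 0.0552), RNF6 siRNA library 1 (0.0531) or library 3 of that group (0.0553) was dropped, with a span of 0.00778 to 0.0921. The other 5 (IARS, LARS, QARS, KARS and DARS) had log2 fold changes between −0.017 and 0.17, and 0 of them passed. Of the scaffolds, EEF1E1 was 1.70-fold lower, at 9.81, 8.54 and 7.51 CPM in RNF6 siRNA libraries, against 15.5, 15.5 and 13.1 CPM in control libraries (log2 fold change −0.77, SE 0.154, adjusted p = 0.00233). AIMP1 (51.8 ± 2.80 CPM in RNF6 siRNA and 47.9 ± 1.93 CPM in control libraries, adjusted p = 0.43) and AIMP2 (15.9 ± 2.20 CPM in RNF6 siRNA and 16.2 ± 1.66 CPM in control libraries, adjusted p = 0.894) did not pass. VARS, the valyl enzyme outside the complex, averaged 196 ± 22.3 CPM in RNF6 siRNA and 249 ± 30.0 CPM in control libraries (SD, n = 3 each; log2 fold change −0.34, SE 0.116, adjusted p = 0.0369). It did not pass once control library 2 (adjusted p = 0.0729) or 3 (0.138) was dropped, or RNF6 siRNA library 2 (0.149) or 3 (0.0828), with a span of 0.00124 to 0.149.

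The 3 members that rose were AARS, HARS and TARS2. AARS, the cytosolic alanyl-tRNA synthetase gene on chromosome 16, had 269.7, 235 and 255 CPM in RNF6 siRNA libraries, against 169, 191 and 190.3 CPM in control libraries. It was 1.38-fold higher with no overlap (log2 fold change 0.47, SE 0.0970, adjusted p = 0.00286). Its mitochondrial counterpart AARS2 had 23.3, 16.5 and 20.03 CPM in RNF6 siRNA libraries, against 21.9, 27.3 and 22.5 CPM in control libraries, and did not pass (log2 fold change −0.25, adjusted p = 0.207). TARS2, the mitochondrial threonyl-tRNA synthetase gene on chromosome 1, had 30.8, 29.6 and 30.8 CPM in RNF6 siRNA libraries, against 19.8, 21.1 and 21.9 CPM in control libraries. That was 1.45-fold higher and again without overlap (log2 fold change 0.54, SE 0.113, adjusted p = 0.00305). The cytosolic TARS had lower values without passing, 246, 277 and 245 CPM in RNF6 siRNA libraries, against 304, 301 and 288 CPM in control libraries, and its groups did not overlap either (log2 fold change −0.22, adjusted p = 0.0863). The calls of AARS and TARS2 held in all 12 alternatives.

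**Figure D3:**
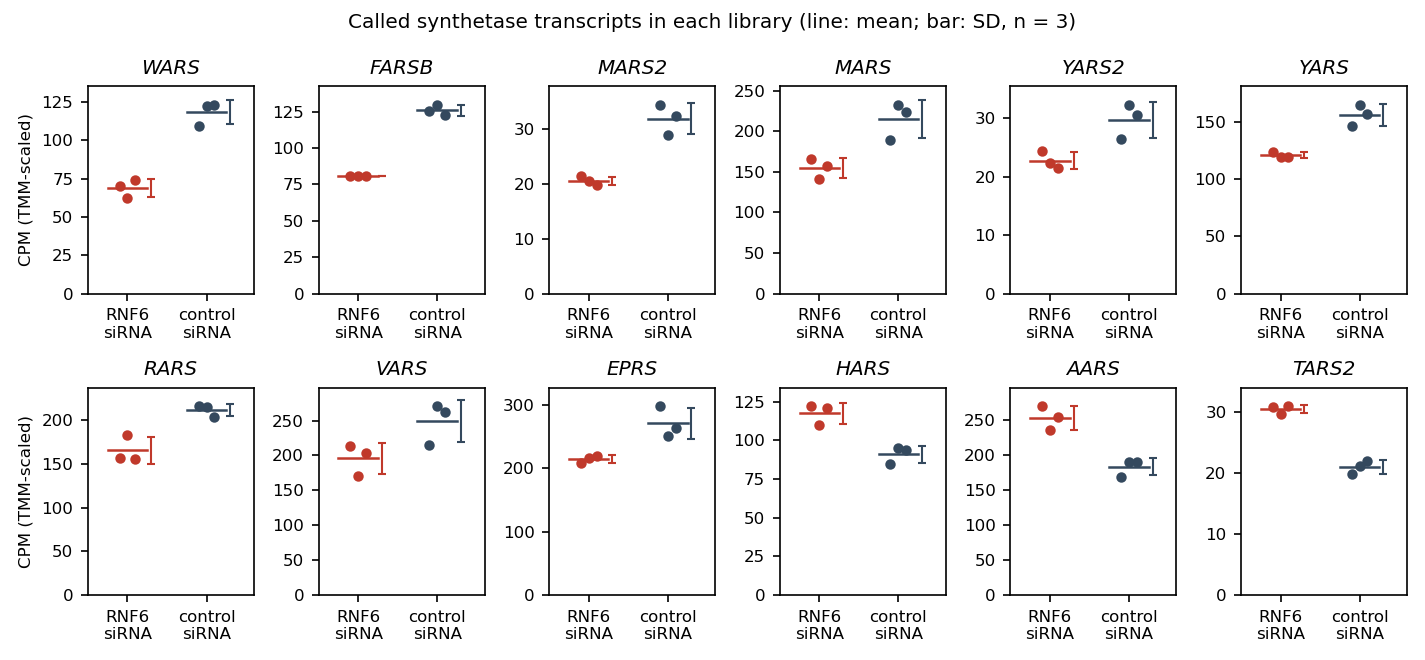
TMM-scaled CPM (y axis, from 0) of the 12 called synthetase transcripts in each RNF6 siRNA library (left) and control siRNA library (right), with the mean as a line and the SD (n = 3) as a bar, ordered by log2 fold change from WARS to TARS2. The libraries of the groups are apart in each of the 12 panels, and in VARS the highest RNF6 siRNA library has 214 CPM and the lowest control library 215 CPM.

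HARS and HARS2 are neighbouring paralogs on chromosome 5, read in opposite directions from start sites that lie 85 bases apart in RefSeq. HARS, the cytosolic histidyl-tRNA synthetase gene, had 122, 109.8 and 121 CPM in RNF6 siRNA libraries, against 84.5, 94.8 and 93.5 CPM in control libraries, a 1.29-fold higher level without overlap (log2 fold change 0.37, SE 0.100, adjusted p = 0.0129). HARS2, the mitochondrial gene, had 57.8, 49.6 and 54.5 CPM in RNF6 siRNA libraries, against 55.4, 54.0 and 55.3 CPM in control libraries, which overlapped (log2 fold change −0.021, SE 0.104, adjusted p = 0.899). The per-library log2 ratio of HARS to HARS2 was 1.12 ± 0.0414 in RNF6 siRNA and 0.73 ± 0.105 in control libraries (SD, n = 3 each), with no overlap. HARS lost its call when control library 3 (adjusted p = 0.0589) or RNF6 siRNA library 3 (0.0688) was dropped, with a span of 0.00767 to 0.0826. These paralogs resemble each other and their exons overlap in part, so some reads may have been lost or misassigned. The shared promoter is shown on the strand of HARS (GRCh38.p14, chr5:140691321-140691620, minus strand), because a transcript that rose and one that did not pass start so close together, with the bases between the start sites of HARS2 and HARS, both included, in capitals:

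HARS: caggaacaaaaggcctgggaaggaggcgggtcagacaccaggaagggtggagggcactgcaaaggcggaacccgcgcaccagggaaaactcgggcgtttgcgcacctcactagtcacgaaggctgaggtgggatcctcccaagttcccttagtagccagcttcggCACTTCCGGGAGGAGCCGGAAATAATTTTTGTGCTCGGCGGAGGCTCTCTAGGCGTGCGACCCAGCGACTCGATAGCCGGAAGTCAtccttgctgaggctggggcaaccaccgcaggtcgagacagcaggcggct

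Paired by amino acid, the cytosolic and mitochondrial enzymes shared a call for methionine and tyrosine only. Pairs were formed for 13 amino acids, leaving out phenylalanine (FARSA and FARSB beside FARS2), glutamate (EPRS beside EARS2) and proline (EPRS beside PARS2). Among the genes left out, EPRS and FARSB fell, while FARSA, FARS2, EARS2 and PARS2 did not pass. Of the 13 pairs, both genes fell for 2, both rose for 0, 1 gene was called for 6 and neither for 5. The sign of the log2 fold change differed within 8 of the 13 pairs, counting members that did not pass. The per-library ratio of cytosolic to mitochondrial CPM did not overlap between the groups for 9 amino acids, lower in RNF6 siRNA libraries for 6 and higher for 3. Levels of single genes did not overlap for 44.2% of all tested genes, and no such share was computed for ratios of gene pairs. The widest differences were those of tryptophan, with a mean log2 ratio of 2.62 ± 0.150 in RNF6 siRNA and 3.50 ± 0.145 in control libraries, and threonine, with 3.07 ± 0.136 in RNF6 siRNA and 3.83 ± 0.114 in control libraries (SD, n = 3 each). For alanine the ratio was higher, 3.68 ± 0.151 in RNF6 siRNA and 2.94 ± 0.137 in control libraries. For tyrosine it was 2.42 ± 0.0619 in RNF6 siRNA and 2.40 ± 0.0656 in control libraries, with overlap. No test of single ratios was made, and the smallest p of an exact two-sided permutation test of 3 against 3 libraries is 0.1.

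**Figure D4:**
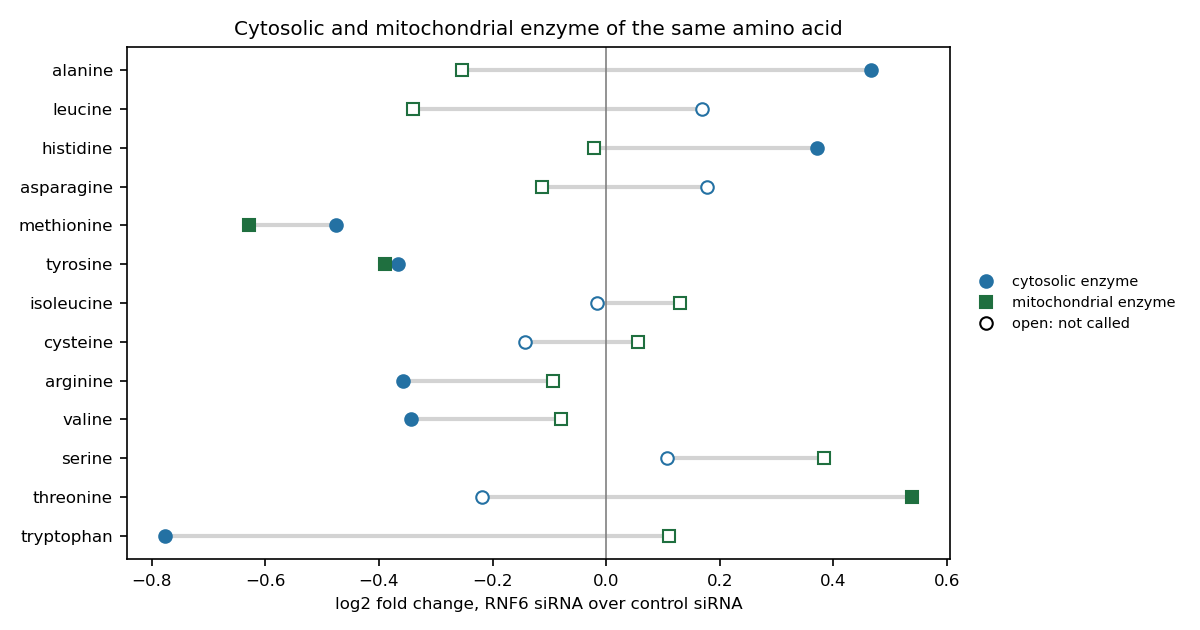
Log2 fold change (RNF6 siRNA over control siRNA, x axis) of the cytosolic enzyme (circle) and the mitochondrial enzyme (square) of 13 amino acids, filled where the adjusted p was below 0.05. The pairs for methionine and tyrosine lie together left of 0, while the cytosolic minus mitochondrial difference is −0.89 for tryptophan and 0.72 for alanine.

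GARS and KARS, single genes that make the enzyme of both compartments, did not pass. GARS had 260.1, 270.5 and 256 CPM in RNF6 siRNA libraries, against 264, 271 and 265 CPM in control libraries (log2 fold change −0.025, SE 0.0866, adjusted p = 0.851). KARS, for lysine, had 184, 167 and 169 CPM in RNF6 siRNA libraries, against 164, 183 and 171 CPM in control libraries (log2 fold change 0.0033, SE 0.0944, adjusted p = 0.982). In both genes the groups overlapped. Among the remaining cytosolic enzymes, NARS, for asparagine, averaged 239.6 ± 13.6 CPM in RNF6 siRNA and 212 ± 9.02 CPM in control libraries without overlap but did not pass (adjusted p = 0.157). CARS, DARS, IARS, LARS, QARS and SARS overlapped between the groups, with log2 fold changes from −0.14 (CARS) to 0.17 (LARS). Of the remaining mitochondrial enzymes, LARS2, for leucine, averaged 39.2 ± 4.34 CPM in RNF6 siRNA and 49.8 ± 6.14 CPM in control libraries, without overlap but above the threshold (adjusted p = 0.0534). It passed once control library 1 (0.00684) or RNF6 siRNA library 1 (0.0354) was dropped, with RLE scaling (0.049) and without the filter on low counts (0.0409). PARS2, for proline, passed as higher only without RNF6 siRNA replicate 1 (adjusted p = 0.0241 there and 0.12 with all libraries). EARS2 and IARS2, for glutamate and isoleucine, had slightly higher values without overlap (log2 fold change 0.18 and 0.13) and did not pass. CARS2, NARS2, RARS2, SARS2 and VARS2 overlapped between the groups, with log2 fold changes from −0.11 (NARS2) to 0.38 (SARS2, with an SE of 0.340).

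A string shared by several cytosolic promoters occurred in the windows of genes called in either direction and of genes not called. The core of the C/EBP-ATF response element (CARE, TGATGNAA), through which ATF4 acts, occurred on either strand in the windows of 8 of 30 members (26.7%), against 4.46% of all genes with a window. Of the cytosolic members with a window 7 of 16 held it, and of the mitochondrial ones 1 of 14. Windows were taken from RefSeq, and those of DARS, LARS, VARS, YARS, AARS2 and VARS2 were not analysed here. The matches are shown with 16 bases on each side, oriented so that the core, in capitals, reads alike. They are printed because the same core occurred in windows of genes that rose, fell or did not pass. They lie on GRCh38.p14 at chr16:70289670-70289709 plus strand (AARS), chr11:3057402-3057441 plus strand (CARS), chr7:30594829-30594868 minus strand (GARS), chr9:92293687-92293726 plus strand (IARS), chr12:57488048-57488087 minus strand (MARS), chr18:57621799-57621838 minus strand (NARS), chr5:33440951-33440990 minus strand (TARS) and chr12:32756071-32756110 minus strand (YARS2).

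AARS: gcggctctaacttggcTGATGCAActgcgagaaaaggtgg
CARS: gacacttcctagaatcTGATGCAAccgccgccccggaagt
GARS: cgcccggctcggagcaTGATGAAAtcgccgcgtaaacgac
IARS: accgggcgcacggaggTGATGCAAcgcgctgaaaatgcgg
MARS: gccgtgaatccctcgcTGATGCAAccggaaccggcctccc
NARS: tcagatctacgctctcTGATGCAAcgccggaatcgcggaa
TARS: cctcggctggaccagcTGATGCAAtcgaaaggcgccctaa
YARS2: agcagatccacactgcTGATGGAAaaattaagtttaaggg

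The core read TGATGCAA in AARS, CARS, IARS, MARS, NARS and TARS, TGATGAAA in GARS and TGATGGAA in YARS2. It began within 33 bases of a start site in every cytosolic member but AARS, where it began 187 bases before it. In NARS and TARS the core began after the start site, by 14 and 2 bases. Each of CARS, GARS and TARS had another RefSeq window without the core. Of the 7 cytosolic holders, AARS rose, MARS fell and 5 did not pass, with a median log2 fold change of −0.025. Of the 9 cytosolic members with a window and no match, 4 fell and 1 rose, with a median of −0.33. Over all tested genes 16.1% fell and 16.6% rose. DARS, LARS, VARS and YARS, whose windows were not analysed, are outside this split, and VARS and YARS fell. The difference between members with and without a match was seen only after the values were known and was not tested. The E-box CACGTG, the core that MYC binds, occurred in 4 of 30 members (IARS, CARS2, EARS2 and MARS2), against 8.77% of all genes. No matches of different motifs overlapped in the members' windows.

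Other genes of the amino acid response were called in both directions, more of them higher than lower. The transcript of ATF4, the central factor of this response, showed no difference beyond the spread of the libraries. RNA counts do not measure the ATF4 protein. ATF4 had 328, 324 and 295 CPM in RNF6 siRNA libraries, against 276, 331 and 296 CPM in control libraries (log2 fold change 0.068, SE 0.0990, adjusted p = 0.634). Of 33 tested members of a list of ATF4 and its targets other than synthetases, 12 rose, 4 fell and 17 did not pass, where 16.6% of all genes rose and 16.1% fell. The median log2 fold change of the list was 0.11. PCK2, the mitochondrial phosphoenolpyruvate carboxykinase gene, was 2.27-fold higher (adjusted p = 5.57e-05). DDIT4, an inhibitor of mTORC1, was 2.44-fold higher (7.22e-04), a call that ended without control replicate 2 (0.052; range 4.16e-19 to 0.052). SLC7A5 and SLC3A2, the chains of the leucine importer LAT1, were 1.93-fold (5.09e-05) and 1.62-fold lower (6.06e-04). ASNS, the asparagine synthetase gene, averaged 118 ± 8.16 CPM in RNF6 siRNA and 119.9 ± 6.38 CPM in control libraries (adjusted p = 0.877). DDIT3, which encodes CHOP and overlaps the end of MARS on the other strand, averaged 14.4 ± 2.43 CPM in RNF6 siRNA and 11.2 ± 0.666 CPM in control libraries (adjusted p = 0.0963), and passed without RNF6 siRNA replicate 3 (0.044). Upstream, 4 of 7 genes around the kinases of eIF2 fell and 0 rose, beside 16.1% of all genes lower and 16.6% higher, with a median log2 fold change of −0.45. EIF2AK4, which encodes GCN2, the sensor of uncharged tRNA, was 1.48-fold lower (adjusted p = 9.06e-04), its activator GCN1L1 1.36-fold (0.00447), the GCN2 inhibitor IMPACT 1.41-fold (0.00647) and EIF2AK3, which encodes PERK, 1.36-fold (0.0242). EIF2AK3 lost its call when control library 3 (adjusted p = 0.0873), RNF6 siRNA library 1 (0.0659) or library 2 of that group (0.078) was dropped, with a span of 0.00363 to 0.0873.

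Genes that act before and after the synthetases were called lower more often than higher in 3 of the lists, those of mitochondrial tRNA maturation, mitochondrial delivery and RNA polymerase III with tRNA processing. Of 14 genes that mature or modify mitochondrial tRNA, some of which also act in the nucleus or cytosol, 7 fell and 0 rose, with a median log2 fold change of −0.35. ELAC2, which trims the 3′ end of tRNA precursors, had 73.7, 62.7 and 70.7 CPM in RNF6 siRNA libraries, against 140.5, 180.4 and 165 CPM in control libraries, a 2.34-fold lower level (adjusted p = 1.05e-05). TRMT10C, a subunit of mitochondrial RNase P, was 1.39-fold lower (0.00455), and the modification genes TRIT1 and CDK5RAP1 1.41-fold (0.00585) and 1.42-fold (0.0057). Of 12 genes that formylate, amidate or deliver charged mitochondrial tRNA or otherwise serve its ribosome, 4 fell and 0 rose (median −0.14). MTFMT, which formylates the methionyl-tRNA made by MARS2, had 13.3, 14.1 and 13.3 CPM in RNF6 siRNA libraries, against 25.5, 29.3 and 28.5 CPM in control libraries (log2 fold change −1.04, SE 0.123, adjusted p = 5.35e-05). QRSL1, a subunit of the amidotransferase that completes glutaminyl-tRNA in mitochondria, was 1.47-fold lower (0.00281), the elongation factor genes GFM1 1.74-fold (1.09e-04) and TSFM 1.68-fold (0.00102). Of 34 genes of RNA polymerase III and tRNA processing in the nucleus, 11 fell and 1 rose (median −0.22), and the 4 with the smallest adjusted p were POLR3E (1.51-fold lower, 9.21e-04), the La protein gene SSB (1.49-fold lower, 0.00135), POLR3B (1.43-fold lower, 0.00669) and POP4 (1.37-fold lower, 0.00772). Of 5 tested genes of delivery in the cytosol 2 rose and 0 fell, EEF1A2 1.70-fold (6.77e-04) and EEF1D 1.33-fold (0.00804), which encode an elongation factor that carries charged tRNA to the ribosome and a subunit of its exchange factor. The tRNA exporter gene XPOT averaged 134 ± 11.4 CPM in RNF6 siRNA and 160.5 ± 19.95 CPM in control libraries (adjusted p = 0.0972) and passed as lower without control replicate 2 (0.0309). Of 6 tested genes of tRNA editing and release, 0 passed and their median was −0.093. These shares stand beside 16.1% of all genes lower and 16.6% higher, and no list was tested against other genes.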

How the data were processed

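Poly-A or total RNA selection, library strand and read length are not stated in the labels. The authors deposited 1 table of unnormalised, whole-number read counts by gene symbol for each of the 6 libraries. The submitters' processing notes name TopHat2 2.0.11, HTSeq and hg19, without order or role. Without a stated strand setting, a gene and its antisense partner cannot be told apart, and reads shared with a paralog or pseudogene may be dropped or ambiguous. Rows that name no gene held 27.3% to 29.4% of reads and were left out.

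Counts were analysed in R 4.3.3 with edgeR 4.0.16: filterByExpr (minimum count 10, minimum total 15), TMM scaling, a robust quasi-likelihood fit of group over all 6 libraries, two-sided, with Benjamini-Hochberg adjustment over all 14685 genes tested. Adjusted p-values are edgeR's except where a sentence names another tool. A gene was called, and "rose" or "fell" is written, at an adjusted p below 0.05. Fold changes set RNF6 siRNA over control siRNA (prior count 0.125). Their SE is the size of the log2 fold change over the square root of F. The alternatives were RLE and upper-quartile scaling, DESeq2 1.42.0, limma-voom (limma 3.58.1), no filter, a replicate block and each library left out, 12 in all. Exon lengths and overlaps come from GENCODE release 29 (GRCh38), a build other than the counts use. Promoter windows come from RefSeq (GRCh38.p14), which matched 30 of the 36 members.

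Members and gene lists were chosen with earlier results of these data known. Values are given library by library for the 10 called members with the largest changes and for AARS, HARS, HARS2, GARS and KARS. From every other pathway list up to 4 called genes ranked by adjusted p are named, besides ATF4, ASNS, DDIT3, AIMP1, AIMP2, EEF1E1 and XPOT. Library values of TARS, WARS2, AARS2, FARSA, EEF1E1, ELAC2, MTFMT and ATF4 were added after they were seen.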

Additional observations from a re-analysis of the deposited data

How the results depend on the processing

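Of 12 called members, 6 (AARS, FARSB, MARS, WARS, MARS2 and TARS2) kept their call in all 12 alternatives, and none of the 12 changed direction in any. Over 36 members and 12 alternatives, 386 of 432 values stayed on their side of the threshold with the same sign. Replicate numbers did not visibly pair the libraries. Deviations of same-numbered libraries from their group means correlated between −0.50 and 0.057, and 0 of 6 libraries correlated best with its own number. Deviations from a mean of 3 libraries depend on each other, so they cannot settle whether same-numbered libraries were handled together. With the replicate block, 1421 genes were higher and 1321 lower, 1 cytosolic synthetase was higher and 3 lower, and 1 mitochondrial one lower. Calls lost with the block were those of EPRS (0.0921), HARS (0.0826), RARS (0.0693), VARS (0.132), YARS (0.074), YARS2 (0.114), EEF1D (0.0563), POP4 (0.0583), IMPACT (0.0512) and EIF2AK3 (0.0743), with the adjusted p in brackets, among the members and the pathway genes named. Leaving out each library in turn gave 1514 to 2910 genes higher, 1478 to 2967 lower, 1 to 2 cytosolic synthetases higher and 3 to 8 lower, 1 to 2 mitochondrial ones higher and 1 to 3 lower, and medians of −0.14 to −0.056 (cytosolic) and −0.070 to 0.018 (mitochondrial). The ratio of cytosolic to mitochondrial sums, RNF6 siRNA over control, ran from 0.919 to 0.948. Scaling, tool and filter moved no count of members by more than 1. Signs changed only in genes that were not called. With each library left out in turn, log2 fold changes ran from −0.057 to 0.16 for DARS, −0.045 to 0.044 for KARS, −0.058 to 0.075 for QARS, −0.0048 to 0.19 for SARS, −0.033 to 0.14 for CARS2, −0.075 to 0.032 for HARS2, −0.17 to 0.0030 for VARS2, −0.073 to 0.023 for ASNS and −0.16 to 0.039 for AIMP2. With upper-quartile scaling IARS was 0.0012, and with no filter KARS was −0.0090 and QARS −0.0019. The cause of these changes was not tested. Low counts limit SARS2, which had 0.893 to 2.06 CPM.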

Other observations

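EEF1G, which encodes a subunit of the exchange factor for the elongation factor that carries charged tRNA, had 0 reads in all 6 libraries, and so the counts do not measure it. Count-table symbols that name a pseudogene of a synthetase, 6 in number, had 5 reads in total over the 6 libraries.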
